A study of Mus musculus with 9 samples.

Results

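Expression of 10 genes that restrain cell proliferation was followed in G1E cells (mouse erythroid progenitors without a functional Gata1 gene), after human GATA1 was put back in a wildtype or a mutant form. The genes were Btg1, Btg2, Gadd45a, Gadd45b, Gadd45g, Cdkn1a, Cdkn1b, Cdkn2c, Cdkn2d and Ccng2. They were taken by symbol, as antiproliferative genes and inhibitors of cyclin-dependent kinases, and were chosen with earlier results of these data known. They are 10 of the 27999 rows of the count table. Each had 1 row, and all 10 passed the filter on low counts that left 9978 genes for testing. Bulk RNA was sequenced from 3 libraries per group, which the series describes as biological replicates. All groups were G1E cells kept in medium with murine SCF and EPO and infected with virus made in 293T cells. The empty vector group received the HMD vector with no insert, the wildtype group received GATA1 WT and the mutant group received GATA1 Mutant. The sources used here do not give the mutation, the time after infection, any selection of infected cells or whether the libraries came from separate infections. P-values therefore cover only the spread between libraries, which may be technical.

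Erythroid maturation depends on the transcription factor GATA1, and during it progenitors pass through a few last divisions and then leave the cell cycle. BTG proteins slow proliferation by bringing the CCR4-NOT deadenylase to mRNA, and GADD45 proteins are small stress-induced partners of MAP kinase kinase kinases, PCNA and CDK1. CIP/KIP inhibitors (p21 from Cdkn1a, p27 from Cdkn1b) bind cyclin and kinase complexes, and INK4 inhibitors (p18 from Cdkn2c, p19 from Cdkn2d) bind CDK4 and CDK6 alone. Cyclin G2, from Ccng2, is an unconventional cyclin that accumulates in resting cells and is a known FOXO target.

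Library totals ran from 11364358 to 17289307 counts. Human GATA1 stood at 598 to 706 CPM (counts relative to the library total) in the mutant libraries and at 715 to 921 CPM in the wildtype libraries, against 0, 2 and 0 counts in empty vector replicates 1, 2 and 3. Libraries were compared by a mean chi-square over genes, in which 1 is sampling noise. Mutant replicates 1 and 2 stood at 2.20, closer than any other pair within a group (9.02 to 19.7). Empty vector replicate 3 stood at 4.70 and 4.55 from mutant replicates 1 and 2, and at 19.7 and 13.4 from empty vector replicates 1 and 2. Mutant replicate 3 stood at 12.2 and 11.9 from mutant replicates 1 and 2. From empty vector replicates 1, 2 and 3 it stood at 17.4, 8.90 and 10.4, so it was nearer to the last 2 than to its own group. Calls of the 10 genes that change without a mutant library or empty vector replicate 3 are given beside the values. The same holds for printed calls of related genes that are lost. For counts over all genes, the changes are given as ranges near the end. Erythroid identity was checked with 12 markers, all of which rose with wildtype GATA1 and 6 with the mutant; their summed level was 1852 to 2247 CPM with empty vector, 3204 to 3327 with the mutant and 21430 to 31748 with the wildtype. Mast cell and basophil markers summed to 740 to 834, 636 to 730 and 273 to 292 CPM in the same order; 4 of 5 tested fell with the wildtype and 2 with the mutant, and Tpsb2 and Mcpt8 were at 0. Megakaryocyte markers summed to 90.3 to 109, 69.3 to 81.5 and 44.1 to 54.1 CPM, 5 of 7 tested fell with the wildtype, and Vwf was at 0. Granulocyte and monocyte markers summed to 9.22 to 11.4, 8.24 to 9.99 and 2.19 to 2.48 CPM; 3 of 4 tested fell with the wildtype, and Elane, Ctsg, Ly6c2, S100a8 and S100a9 were at 0. Lymphoid markers summed to 12.1 to 12.9, 8.75 to 9.93 and 7.63 to 10.3 CPM; of 2 tested, 1 rose and 1 fell, and Cd3e, Pax5, Rag1 and Rag2 were among those at 0. The marker calls come from the main fit and were not followed with single libraries left out. Without empty vector replicate 2, only 5 of all genes were called higher and 2 lower between mutant and empty vector. The 6 erythroid calls with the mutant therefore cannot all hold there. The part of these cell types in the results below was not tested, and in bulk RNA fewer cells of a type and less RNA per cell cannot be told apart.

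Wildtype GATA1 raised Btg2, Gadd45a and Gadd45g, and their promoters are shown because these are the 3 genes of the 10 that rose. The letters come from RefSeq on GRCm38.p6 and lie upstream of the gene. Capitals mark the CCAAT box and the cyclic AMP response element TGACGTCA. Btg2 is on the minus strand, chr1:134079156-134079405. Gadd45a is on the minus strand, chr6:67037458-67037657. Gadd45g is on the plus strand, chr13:51846425-51846674.
Btg2: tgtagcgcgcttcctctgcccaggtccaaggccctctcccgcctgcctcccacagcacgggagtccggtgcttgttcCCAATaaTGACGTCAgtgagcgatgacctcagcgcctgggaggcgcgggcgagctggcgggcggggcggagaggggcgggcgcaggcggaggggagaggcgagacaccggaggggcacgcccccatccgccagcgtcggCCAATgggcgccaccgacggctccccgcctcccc
Gadd45a: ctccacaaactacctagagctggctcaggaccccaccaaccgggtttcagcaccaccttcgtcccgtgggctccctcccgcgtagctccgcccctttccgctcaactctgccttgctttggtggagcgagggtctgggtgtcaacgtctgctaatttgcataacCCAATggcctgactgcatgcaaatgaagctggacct
Gadd45g: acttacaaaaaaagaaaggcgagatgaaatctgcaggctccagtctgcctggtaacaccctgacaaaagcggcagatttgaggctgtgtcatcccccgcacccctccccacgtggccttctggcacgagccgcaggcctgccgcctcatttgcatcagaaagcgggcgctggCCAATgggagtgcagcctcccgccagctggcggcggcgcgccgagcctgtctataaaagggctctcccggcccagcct
Over 32851 promoters of 250 bases, searched on both strands, CCAAT was in 33.8% and TGACGTCA in 1.55%. CCAAT was found in the windows of Btg1, Btg2, Gadd45a, Gadd45b, Gadd45g, Cdkn1b and Cdkn2d, and TGACGTCA only in that of Btg2, with its first base at -166 from the RefSeq start. The GATA words searched were AGATAA, its form that ends in G (AGATAG), its form that starts with T (TGATAA) and the form with both changes (TGATAG). They were present in 26.5% of all promoters, and among the 12 windows of the 10 genes they were found only in the upstream window of Cdkn1a, at -195. The FOXO word GTAAACA, present in 3.17%, was found only in that of Btg1, at -204. These are matches of letters and not measured binding sites, and binding further from the start was not analysed here.

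Btg2 showed the largest response of the 10 genes. Its gene lies on chromosome 1 from 134075170 to 134079120 (GRCm38, GENCODE M21, minus strand). With empty vector it stood at 8.28, 9.71 and 8.82 CPM in replicates 1, 2 and 3, with the mutant at 11.2, 9.09 and 9.60 CPM, and with the wildtype at 94.3, 75.1 and 85.9 CPM. The wildtype libraries were far above all others, while mutant and empty vector overlapped. The mean rose 9.52-fold, from 8.94 ± 0.722 to 85.1 ± 9.62 CPM (SD, n = 3), a log2 fold change of 3.25 ± 0.15 (SE) with an adjusted p of 1.31e-08 by edgeR's quasi-likelihood test. The mutant minus empty vector was 0.16 ± 0.15 (adjusted p = 0.646, edgeR), with an approximate 95% interval from -0.17 to 0.48. Against the wildtype, the mutant mean was 8.55-fold lower, with a log2 fold change of -3.09 ± 0.15 (adjusted p = 3.11e-08, edgeR).

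Btg1, the close paralog of Btg2 and also a deadenylase recruiter, was near the low end of detection, with 21 to 45 reads per library. It stood at 2.49, 2.52 and 1.80 CPM with empty vector, 2.15, 1.81 and 2.92 CPM in the mutant libraries and 3.20, 2.02 and 3.86 CPM with the wildtype. All 3 groups overlapped. Wildtype minus empty vector was 0.43 ± 0.30 on the log2 scale (adjusted p = 0.322, edgeR), and the interval of the fold ran from 0.862 to 2.09. Scaled to exon length, Btg2 made up 88.3% of the sum of both genes with empty vector, 89.3% with the mutant and 98.2% with the wildtype.

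**Figure D1:**
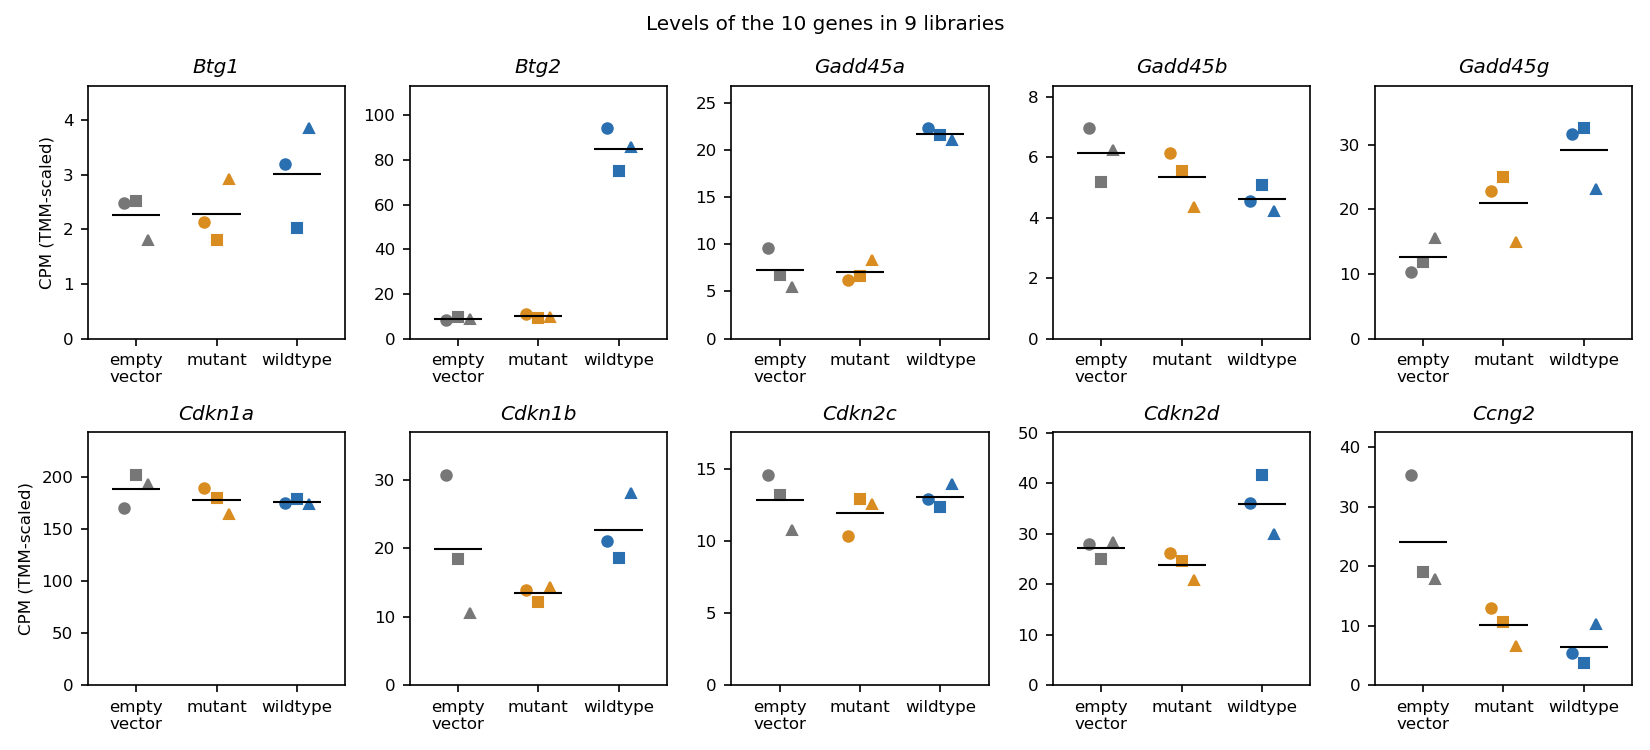
Levels of the 10 genes by library, in CPM scaled by TMM (each vertical axis starts at 0). Circles, squares and triangles are replicates 1, 2 and 3, and the black bar is the group mean. The wildtype libraries of Btg2 lie at 75.1 to 94.3 CPM, against 8.28 to 11.2 in the other 6, and the Cdkn1a groups overlap.

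Of the GADD45 genes, Gadd45a and Gadd45g rose with wildtype GATA1 and Gadd45b did not pass the test. Gadd45a, the classic DNA damage-induced member, lies on chromosome 6 from 67035096 to 67037457 (minus strand). It stood at 9.60, 6.78 and 5.47 CPM with empty vector, 6.21, 6.62 and 8.37 CPM in the mutant libraries and 22.3, 21.5 and 21.05 CPM with the wildtype. The wildtype libraries lay close together above all others, and the mutant lay within the empty vector range. The wildtype mean was 2.97-fold higher than empty vector, with a log2 fold change of 1.57 ± 0.21 (adjusted p = 0.000118, edgeR). The mutant was 3.06-fold lower than the wildtype, at -1.62 ± 0.20 (adjusted p = 0.000114, edgeR), and differed from empty vector by -0.04 ± 0.21 (adjusted p = 0.945, edgeR; interval -0.50 to 0.41). On the other strand, 337 exon bases of Gadd45a overlap E230016M11Rik, which has no row of its own, and the library method keeps no strand, so reads there cannot be assigned.

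Gadd45g, the member best known from cytokine signalling and differentiation, lies on chromosome 13 from 51846678 to 51848468 (plus strand). It stood at 10.3, 11.8 and 15.6 CPM with empty vector, 22.9, 25.0 and 14.9 CPM in the mutant libraries and 31.7, 32.6 and 23.2 CPM with the wildtype. Wildtype was above empty vector in every library, and the mutant overlapped with both, its replicate 3 being inside the empty vector range. Gadd45g rose 2.32-fold with the wildtype, a log2 fold change of 1.21 ± 0.22 (adjusted p = 0.00169, edgeR). Mutant minus empty vector was 0.73 ± 0.22, with an unadjusted p of 0.00589 and an adjusted p of 0.294 (edgeR). Without empty vector replicate 3 this became 0.92 with an adjusted p of 0.0364. Mutant minus wildtype was -0.48 ± 0.22 (adjusted p = 0.121, edgeR).

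Gadd45b, the TGF-beta and NF-kB responsive member, stood at 6.96, 5.17 and 6.24 CPM with empty vector, 6.15, 5.54 and 4.35 CPM in the mutant libraries and 4.56, 5.10 and 4.21 CPM with the wildtype. The wildtype values were all below those of empty vector, by a narrow margin. The log2 difference was -0.41 ± 0.21 (adjusted p = 0.177, edgeR). The 3 GADD45 genes summed to 18.7 ± 1.60 CPM per kilobase of exon with empty vector, 25.2 ± 4.42 with the mutant and 40.1 ± 4.91 with the wildtype (SD, n = 3). The share of Gadd45a in that sum was 22.3%, 16.6% and 30.9% in the same order, that of Gadd45b 20.6%, 13.4% and 7.29%, and that of Gadd45g 57.1%, 70.04% and 61.8%.

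None of the 4 CDK inhibitor genes passed the edgeR test between wildtype and empty vector. Cdkn2d was the only one whose wildtype and empty vector libraries did not overlap, at 36.0, 41.7 and 30.0 CPM against 27.9, 24.9 and 28.4 CPM, and it stood at 26.1, 24.6 and 20.8 CPM with the mutant. Its log2 fold change was 0.41 ± 0.15 with an adjusted p of 0.072 (edgeR). DESeq2 called it, with an adjusted p of 0.046, and so did edgeR without wildtype replicate 3, with 0.0192. In mutant against wildtype Cdkn2d was called lower, 1.51-fold by the means, at -0.59 ± 0.15 (adjusted p = 0.0139, edgeR). That call was lost without mutant replicate 3 (0.057) and without wildtype replicate 2 (0.0611).

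Cdkn1a, on chromosome 17 from 29090976 to 29100727, was the most abundant of the 10 genes, with 1868 to 3371 reads per library, and differed little between groups. It stood at 170.2, 203 and 194 CPM with empty vector, 190.3, 181 and 164 CPM in the mutant libraries and 175, 179.7 and 174 CPM with the wildtype. The wildtype libraries lay inside the empty vector range. Wildtype minus empty vector was -0.10 ± 0.11 (adjusted p = 0.545, edgeR), and the interval of the fold ran from 0.793 to 1.10. Mutant minus wildtype was 0.02 ± 0.11 (adjusted p = 0.924, edgeR; interval -0.22 to 0.25). Of its exon bases, 273 overlap AC167363.2 on the other strand, which has no row of its own.

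Cdkn1b varied widely among the empty vector libraries, at 30.8, 18.4 and 10.6 CPM, against 13.9, 12.1 and 14.4 CPM in the mutant libraries and 21.1, 18.7 and 28.2 CPM with the wildtype. The empty vector range covered all other values. Wildtype minus empty vector was 0.19 ± 0.30 (adjusted p = 0.677, edgeR; interval -0.45 to 0.83), and mutant minus empty vector was -0.56 ± 0.30 (adjusted p = 0.433, edgeR). Without empty vector replicate 3, its lowest library, the mutant difference was -0.87 with an adjusted p of 0.0386. The mutant was below the wildtype in every library, at -0.75 ± 0.30 (adjusted p = 0.0833, edgeR), and this difference was called without empty vector replicate 1 (0.0261) or 3 (0.0172). It was also called with DESeq2 (adjusted p = 0.0378), and with edgeR on only the 6 libraries compared (0.0112) or with no filter on low counts (0.00345).

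Cdkn2c stood at 14.6, 13.2 and 10.7 CPM with empty vector, 10.3, 12.9 and 12.6 CPM in the mutant libraries and 12.9, 12.3 and 13.9 CPM with the wildtype. All groups overlapped, and wildtype minus empty vector was 0.02 ± 0.17 (adjusted p = 0.933, edgeR; interval -0.34 to 0.39). The 4 inhibitor genes summed to 79.6 ± 2.10 CPM per kilobase of exon with empty vector, 72.8 ± 4.96 with the mutant and 82.3 ± 3.21 with the wildtype. Cdkn1a held 66.8%, 68.99% and 60.4% of that sum and Cdkn2d 21.7%, 20.8% and 27.6%.

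Ccng2 was the gene that fell with wildtype GATA1. It lies on chromosome 5 from 93267257 to 93276231 (plus strand) and stood at 35.4, 18.9 and 17.8 CPM with empty vector, 13.0, 10.5 and 6.55 CPM in the mutant libraries and 5.43, 3.65 and 10.3 CPM with the wildtype, the last from 68, 38 and 118 reads. Every wildtype and every mutant library was below every empty vector library, and wildtype and mutant overlapped. The wildtype mean was 3.71-fold lower than that of empty vector, with a log2 fold change of -1.88 ± 0.37 (adjusted p = 0.00279, edgeR). Mutant minus empty vector was -1.25 ± 0.35, with an unadjusted p of 0.00363 and an adjusted p of 0.243 (edgeR). DESeq2 called this difference, with an adjusted p of 0.0388, as did edgeR without empty vector replicate 3, at -1.43 with 0.036. Mutant minus wildtype was 0.63 ± 0.38 (adjusted p = 0.239, edgeR), and without wildtype replicate 3 it was 1.13 with an adjusted p of 0.0387.

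**Figure D2:**
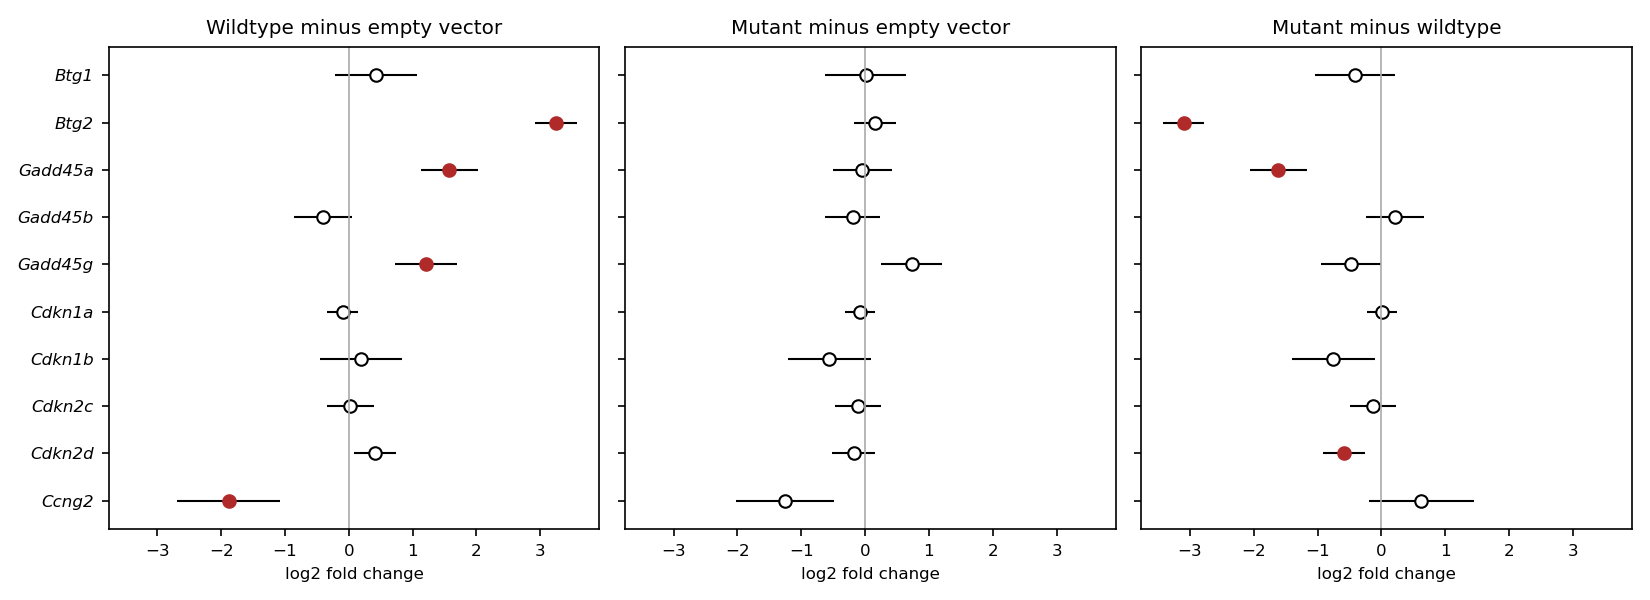
Log2 fold changes of the 10 genes in each comparison, with approximate 95% intervals from edgeR. Filled points passed an adjusted p of 0.05. Btg2, Gadd45a, Gadd45g and Ccng2 are filled at the left, no gene is filled in the middle, and Btg2, Gadd45a and Cdkn2d are filled at the right.

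Between wildtype and empty vector, 3 of the 10 genes rose, 1 fell and 6 were not called. Of all 9978 genes tested, 11.4% were called higher and 11.9% lower. The groups did not overlap for 6 of the 10 genes, against 32.6% of all genes. The median log2 fold change was 0.30 for the 10 genes and -0.04 for all genes. All 4 calls held in each of 17 alternative analyses.

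Between mutant and empty vector, edgeR called 0 of the 10 genes, 2 had an unadjusted p under 0.05 (Gadd45g and Ccng2), and DESeq2 called 1 (Ccng2). Among all genes edgeR called 0.21% higher and 0.0601% lower, and 1284 of the 9978 tested had an unadjusted p under 0.05. DESeq2 called 60 of all genes higher and 37 lower. Without empty vector replicate 3, edgeR called 1 of the 10 higher (Gadd45g) and 2 lower (Cdkn1b, Ccng2), with 2.25% of all genes called higher and 6.05% lower. The groups did not overlap for 1 of the 10 genes, against 15% of all genes, and the median log2 fold change was -0.09 for the 10 genes. The mutant and wildtype comparisons share the empty vector libraries, so their values for a gene are not independent.

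Between mutant and wildtype, edgeR called 3 genes lower (Btg2, Gadd45a, Cdkn2d) and 0 higher, and DESeq2 called 4 lower, adding Cdkn1b, and 0 higher. Of the 10 genes, 5 had an unadjusted p under 0.05, all lower in the mutant, against 3898 of all 9978 genes in either direction. Among all genes edgeR called 13.2% higher and 12.7% lower, and DESeq2 called 1329 higher and 1503 lower. The groups did not overlap for 4 of the 10 genes, against 44.2% of all genes. The median log2 fold change was -0.45 for the 10 genes and -0.01 for all genes. Mutant and wildtype libraries of the same number deviated together, although numbers 1 and 2 could not be told apart. No label gives such a pairing. With the number as a block in these 6 libraries, a fit added after seeing the data, 5 genes were called lower. They were Btg2 at -3.10, Gadd45a at -1.625, Cdkn1b at -0.74, Cdkn2d at -0.59 and Gadd45g at -0.49, with adjusted p (edgeR) of 9.58e-13, 2.54e-07, 0.000251, 0.000347 and 0.00193. In that blocked fit 23.6% of all genes were called higher and 24.5% lower. The block was chosen from the deviations of these same libraries, so the adjusted p-values of that fit may be too small.

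Compared per kilobase of merged exon, Cdkn1a was highest in each group, with means of 53.2 CPM per kilobase with empty vector, 50.2 with the mutant and 49.6 with the wildtype, apart from the next gene in every library. With empty vector it was followed by Cdkn2d at 17.2 and Gadd45g at 10.7, each apart from its neighbours. Cdkn2c at 4.78, Ccng2 at 4.40, Cdkn1b at 4.38, Gadd45a at 4.13, Gadd45b at 3.86 and Btg2 at 3.26 overlapped neighbour by neighbour, and Btg1 was lowest at 0.430. With the mutant, Gadd45g at 17.8 and Cdkn2d at 15.2 overlapped in the next places. Cdkn2c at 4.44, Gadd45a at 4.01, Btg2 at 3.63, Gadd45b at 3.36 and Cdkn1b at 2.96 again overlapped neighbour by neighbour, above Ccng2 at 1.84 and Btg1 at 0.434. With the wildtype, Btg2 at 31.0, Gadd45g at 24.9 and Cdkn2d at 22.8 overlapped neighbour by neighbour below Cdkn1a, and Gadd45a at 12.3 stood apart. Cdkn1b at 4.97 and Cdkn2c at 4.85 overlapped, Gadd45b stood apart at 2.91, and Ccng2 at 1.19 and Btg1 at 0.573 overlapped at the low end. Btg2 thus held place 9 of 10 with empty vector, 6 with the mutant and 2 with the wildtype. Its places with empty vector and mutant lie in runs of overlapping genes, and Btg2 was not called between these groups.

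**Figure D3:**
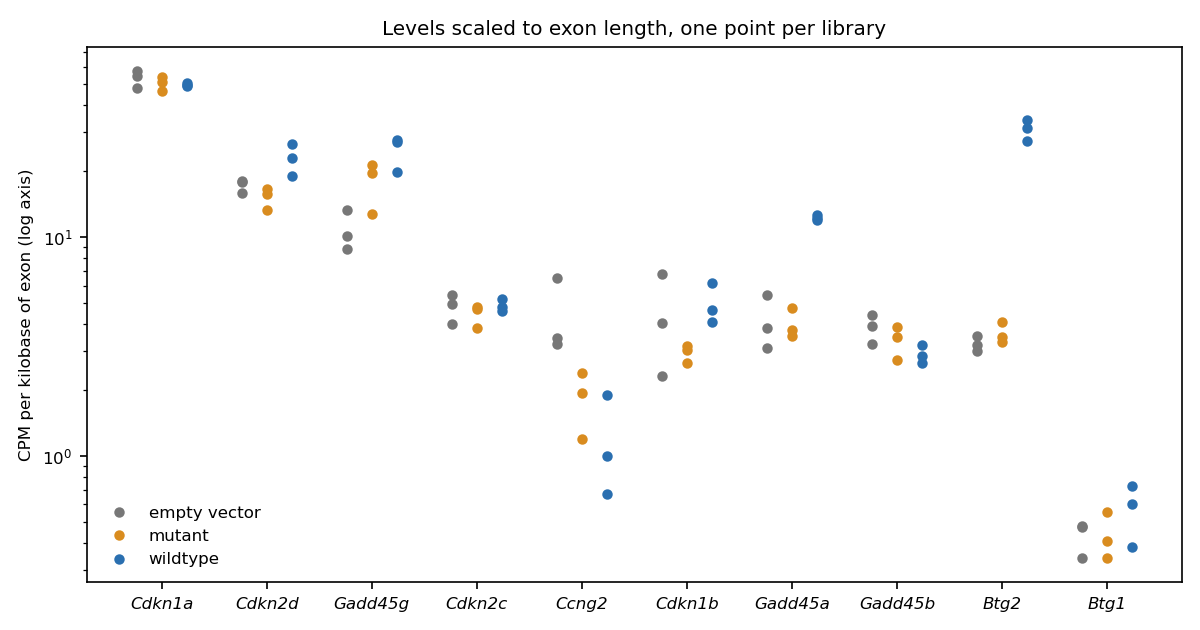
Level of each gene in CPM per kilobase of exon on a log axis, 1 point per library, with genes ordered by their empty vector mean. Cdkn1a is highest in all groups (means 49.6 to 53.2), and Btg2 moves from 3.26 to 31.0 between empty vector and wildtype.

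The genes outside the 10 whose log2 CPM followed Btg2 most closely over the 9 libraries were Chst10 (Pearson r = 0.998), Grina, Fhdc1, Tubb1 and Btnl10 (each 0.997). Predicted genes named Gm with a number and Rik clones were left out of this ranking. The libraries share 3 groups, so r mainly reflects the gap between wildtype and the rest. In CPM, Chst10 stood at 111, 116 and 448 with empty vector, mutant and wildtype, Grina at 26.0, 29.4 and 139, and Fhdc1 at 2.09, 2.36 and 33.7. Tubb1, a beta-tubulin best known from platelets, stood at 0.0233, 0.0404 and 37.2 CPM, and Btnl10 at 0, 0 and 4.54 CPM. No fold is given for the last pair, since 3 counts correspond to 0.174 to 0.264 CPM in a library.

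Related genes were taken from 8 lists of the same pathways, 116 genes in the table of which 100 were tested. None of the 10 genes is in these lists. Between wildtype and empty vector 16 rose and 10 fell, near the 11.4% and 11.9% of all genes. Leaving out single libraries moved the number that fell between 3 and 17: it was 3 without wildtype replicate 1, 4 without empty vector replicate 2, 5 without wildtype replicate 2, 6 without mutant replicate 1 and 17 without wildtype replicate 3. The number that rose stayed between 11 and 17. With single libraries left out, all genes gave 732 to 1614 higher and 655 to 1641 lower. The lower number was 655 without wildtype replicate 1 and 1641 without wildtype replicate 3. Between mutant and empty vector edgeR called 0, with 18 at an unadjusted p under 0.05 (against 1284 of all 9978 genes), and DESeq2 called 0. Without empty vector replicate 3 edgeR called 3 higher and 10 lower, against 2.25% and 6.05% of all genes. Between mutant and wildtype 10 were higher and 17 lower, against 13.2% and 12.7% of all genes. The number higher was 4 without mutant replicate 1, 5 without wildtype replicate 2 and 6 without mutant replicate 2 or wildtype replicate 1. Among all genes the number higher ran from 693 to 1581 with single libraries left out. With the replicate block in the 6 libraries 22 were higher and 33 lower, against 23.6% and 24.5% of all genes.

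Among 5 tested genes related to these families by descent, name or binding, 1 rose and 1 fell (median log2 fold change 0.22). Cdkn3, a phosphatase that acts on CDKs, rose from 10.9 ± 1.86 to 31.0 ± 1.80 CPM, by 1.52 ± 0.17 (adjusted p = 2.83e-05, edgeR), and was -1.40 ± 0.16 in mutant minus wildtype (6.16e-05). Tob1, a BTG relative, was called lower at -0.78 ± 0.23 (adjusted p = 0.0274, edgeR), a call lost without wildtype replicate 1 or 2 or empty vector replicate 1 or 2, up to 0.112. Without wildtype or empty vector replicate 3, 2 genes of the list fell. Gadd45gip1, a GADD45G-binding protein, was -0.18 ± 0.19 in mutant minus wildtype (adjusted p = 0.511, edgeR).

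Of 15 genes for cyclins, cyclin-dependent kinases and CDC25 phosphatases, 6 rose and 2 fell (median 0.12). Cdc25b, a phosphatase that activates CDKs, rose from 16.3 ± 1.58 to 100.2 ± 15.8 CPM, by 2.62 ± 0.15 (adjusted p = 8.8e-08, edgeR), and was -2.61 ± 0.15 in mutant minus wildtype (1.28e-07). Ccne1, cyclin E1, rose from 85.7 ± 5.73 to 292 ± 25.2 CPM, by 1.77 ± 0.11 (adjusted p = 1.83e-07, edgeR), and was -1.66 ± 0.11 in mutant minus wildtype. The number that fell was 1 without any single mutant library, wildtype replicate 1 or 2, or empty vector replicate 2 or 3.

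Of 13 RB pocket proteins and E2F factors, which act downstream of the CDKs, 1 rose and 1 fell (median -0.07). E2f2 rose from 27.4 ± 3.98 to 68.8 ± 8.27 CPM, by 1.33 ± 0.14 (adjusted p = 2.23e-05, edgeR), and was -0.90 ± 0.14 in mutant minus wildtype (0.000528). Rbl2, the pocket protein p130, was called lower at -0.40 ± 0.13 (adjusted p = 0.0371, edgeR) and was 0.41 ± 0.13 in mutant minus wildtype (0.031). The first call was lost without mutant replicate 1 or 2, wildtype replicate 1 or 2, or empty vector replicate 1 or 2, up to 0.135. The second was lost without mutant replicate 1 or 3, wildtype replicate 1 or 2, or empty vector replicate 2, up to 0.121, and with the replicate block in all 9 libraries (0.0656). When wildtype replicate 2 was left out 3 genes rose, and 2 fell without replicate 3 of the wildtype or of the empty vector.

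Of 12 genes for p27 and p21 turnover, 2 rose and 1 fell (median 0.04). Ubac1 and Rnf123, the subunits of the KPC ubiquitin ligase for p27, rose from 27.7 ± 2.54 to 84.7 ± 17.5 CPM and from 46.8 ± 11.2 to 98.3 ± 7.92 CPM. Their log2 fold changes were 1.61 ± 0.17 (adjusted p = 1.63e-05, edgeR) and 1.07 ± 0.17 (0.000519), and in mutant minus wildtype -1.49 ± 0.16 and -0.755 ± 0.17. Skp2, the F-box subunit of another p27 ligase, was the gene called lower, at -0.44 ± 0.14 (adjusted p = 0.0363, edgeR), and is named after its value was seen. Its call was lost without mutant replicate 1 or 2, wildtype replicate 1, or empty vector replicate 1 or 2, up to 0.2. Without wildtype or empty vector replicate 3, 2 genes of the list fell.

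Of 15 CCR4-NOT and BTG partner genes, 2 fell (median -0.15). Cnot6l, a catalytic deadenylase subunit, fell from 56.9 ± 13.1 to 30.2 ± 6.70 CPM, by 0.91 ± 0.21 on the log2 scale (adjusted p = 0.00728, edgeR). Cnot1, the scaffold, was called lower at -0.42 ± 0.12 (adjusted p = 0.0224, edgeR) and was 0.67 ± 0.12 in mutant minus wildtype (0.00156). Pabpc1, a poly(A)-binding protein, was 0.48 ± 0.13 in mutant minus wildtype (adjusted p = 0.0141, edgeR), lost without mutant replicate 1 or 2 or wildtype replicate 2, up to 0.068. The Cnot1 call against empty vector was lost without mutant replicate 1, wildtype replicate 1 or 2, or empty vector replicate 2 or 3, up to 0.138. Leaving out mutant replicate 1, wildtype replicate 1 or 2, or empty vector replicate 2 left 1 that fell, and leaving out wildtype replicate 3 gave 4.

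Of 10 genes for GADD45 partners, MAP kinases and GADD34, 2 rose and 1 fell (median -0.10). Ppp1r15a, known as GADD34, directs a phosphatase to the translation factor eIF2alpha. It rose from 26.2 ± 1.37 to 123 ± 24.8 CPM, by 2.23 ± 0.16 (adjusted p = 5.87e-07, edgeR), and was -1.75 ± 0.15 in mutant minus wildtype (5.1e-06). Mapk14, p38alpha, was called lower at -0.48 ± 0.13 (adjusted p = 0.017, edgeR), a call lost without wildtype replicate 1 or 2 or empty vector replicate 2, up to 0.084. Without empty vector replicate 1, 2 genes of the list fell. Mapk9, a JNK and named after its value was seen, was called higher at 0.55 ± 0.16 (adjusted p = 0.0224, edgeR), which did not hold without replicate 1 or 3 of the wildtype or 2 or 3 of the empty vector, up to 0.0587. Map3k4, a kinase that GADD45 proteins bind, was 0.65 ± 0.17 in mutant minus wildtype (adjusted p = 0.0126, edgeR), lost without mutant replicate 1 (0.0601) or wildtype replicate 2 (0.0522).

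Of 20 genes for p53 and its targets, 1 was called higher, with an adjusted p by edgeR, and 0 lower (median 0.05). At an unadjusted p under 0.05, 2 were higher and 2 lower, against 3639 of all 9978 genes in either direction. DESeq2 called 1 higher and 0 lower, against 1379 higher and 1191 lower among all genes. Eda2r, a TNF receptor family member, was at 0.83 ± 0.23 (adjusted p = 0.02, edgeR), a call that did not hold without replicate 1 of the wildtype (0.0792) or 3 of the empty vector (0.0573), and at -1.11 ± 0.23 in mutant minus wildtype (0.00417). Zmat3 was at -0.40 ± 0.15 (adjusted p = 0.0687, edgeR). Trp53inp1 was at -0.84 ± 0.24 in mutant minus wildtype (adjusted p = 0.0224, edgeR), lost without mutant replicate 1 or 2 or wildtype replicate 1 or 3, up to 0.0839. Without wildtype replicate 3, 2 genes were called higher and 2 lower. Without empty vector replicate 3, 2 were called lower, and without empty vector replicate 1, 1 was.

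Of 11 FOXO factors and targets, 3 rose and 2 fell (median 0.05), and Ccng2 is not counted among them. Map1lc3b, the autophagosome protein LC3B, rose from 117 ± 14.9 to 237 ± 26.0 CPM, by 1.01 ± 0.13 (adjusted p = 8.62e-05, edgeR), and was -1.07 ± 0.13 in mutant minus wildtype. Cited2, a transcriptional coregulator, fell from 10.8 ± 1.17 to 4.85 ± 0.724 CPM, by 1.15 ± 0.20 on the log2 scale (adjusted p = 0.00102, edgeR), and was 1.07 ± 0.20 in mutant minus wildtype. Only 1 rose when replicate 1 of the wildtype or replicate 2 of the empty vector was left out, and 1 fell without the former.

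**Figure D4:**
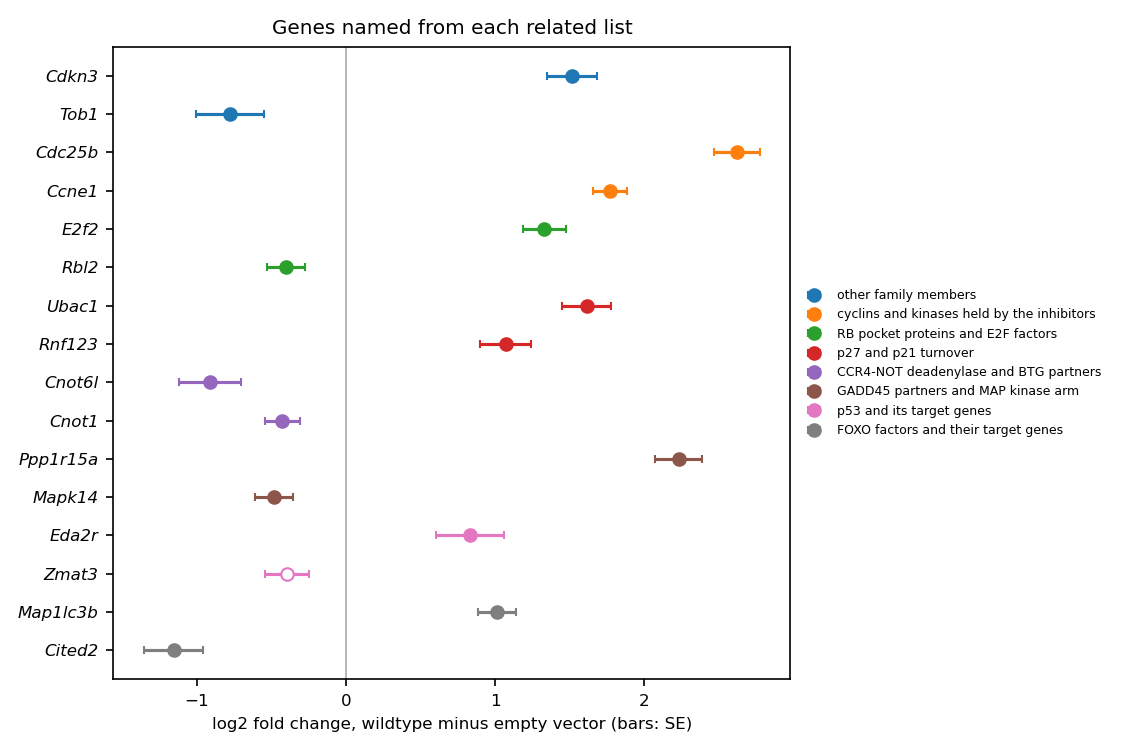
Log2 fold changes, wildtype minus empty vector, of the 2 genes named from each related list, with SE from edgeR as bars and colours for the lists. Filled points passed an adjusted p of 0.05. Cdc25b (2.62) and Ppp1r15a (2.23) lie farthest to the right and Cited2 (-1.15) farthest to the left, and Zmat3 is open.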

How the data were processed

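The authors deposited 1 table of raw read counts per gene symbol for 9 libraries. It held 27999 rows, of which 12975 had no count. Total RNA was converted with Smart-seq2 and indexed by a Nextera-based step, per the labels' protocols. STAR and the builds GRCm38.p4 and hg19 are named in the submitters' processing notes. The version of STAR, how reads were counted (multi-mapping reads included) and against which annotation is not given in the sources used here. Library totals were 11364358 to 17289307 counts. Groups and replicate numbers came from the sample titles.

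Tests were run in edgeR 4.0.16 and R 4.3.3 (limma 3.58.1): TMM scaling, filterByExpr by group, and a quasi-likelihood model with 1 mean per group over all 9 libraries, leaving 6 residual degrees of freedom. Human GATA1 was kept out of the tests, and P-values were adjusted by Benjamini-Hochberg over 9978 genes, with calls at 0.05. SE was obtained by dividing the size of the log2 fold change by the root of the F-statistic, and the 95% intervals built on it are approximate. The scripts were tested on simulated data. Levels are CPM on TMM-scaled library sizes, and a prior count of 2 was added for log2 CPM. Exon lengths and gene positions were read from GENCODE M21 (GRCm38), which may differ from the annotation used for counting. Promoters and motif shares are from RefSeq on GRCm38.p6.

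The 10 genes and the lists of related genes and markers were chosen with earlier results of these data known. From each related list the 2 tested genes with the smallest unadjusted p were named, for wildtype against empty vector and for mutant against wildtype, plus the 5 genes most correlated with the member of largest change. Symbols on more than 1 row (Map2k7, Itgam) and Cnot9, which had no row under that symbol, were left out of list counts.

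The series and labels do not say what a replicate number stands for. Deviations from group means correlated between same-numbered mutant and wildtype libraries at 0.17, 0.29 and 0.53 for numbers 1, 2 and 3. The number was therefore used as a block in these 6 libraries, although no label gives a pairing. Mutant 1 with wildtype 2 (0.24) and mutant 2 with wildtype 1 (0.22) correlated as much, so these data set number 3 apart but not 1 from 2. Same-numbered correlations were -0.24, -0.20 and -0.44 between mutant and empty vector and -0.22, -0.37 and -0.34 between wildtype and empty vector. Empty vector was therefore left out of that block. Differently numbered libraries of 2 groups also correlated, up to 0.41 for wildtype 3 with empty vector 2. Alternatives were other scalings (RLE, upper quartile), other low-count filters, DESeq2 1.42.0, only the libraries compared, the replicate block, mutant replicates 1 and 2 summed, and each library left out. The replicate block in the 6 mutant and wildtype libraries was added after seeing the data.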

Additional observations from a re-analysis of the deposited data

How the results depend on the processing

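Depth limits Btg1 most: it could not be tested under a filter of 5 CPM in 3 libraries. Of the 10 genes, 3 were called higher and 1 lower between wildtype and empty vector in the alternatives that kept all libraries of both groups, except for 4 higher with DESeq2, and 3 to 4 and 1 when single libraries were left out. Between mutant and empty vector, 0 higher and 0 lower became 1 and 1 with no filter on low counts (Gadd45g and Ccng2) and 0 and 1 with DESeq2, with ranges of 0 to 1 and 0 to 2 over single libraries left out. Between mutant and wildtype, 1 was called higher with no filter (Ccng2, adjusted p = 0.0298 by edgeR), and single libraries left out gave 0 to 1 higher and 2 to 4 lower; with no filter, DESeq2 or only the 6 libraries compared, 4 were lower, adding Cdkn1b. There, the replicate block in the 6 mutant and wildtype libraries gave 5 lower instead of 3. The block in all 9 libraries changed no call of the 10 genes. Differences that turned sign were all uncalled. Over single libraries left out, wildtype minus empty vector ran from -0.12 to 0.64 for Cdkn1b and from -0.092 to 0.12 for Cdkn2c, which was -0.026 without wildtype replicate 3. Mutant minus empty vector ran from -0.19 to 0.16 for Btg1 (-0.012 with the replicate block), from -0.21 to 0.21 for Gadd45a (0.013 with mutant replicates 1 and 2 summed) and from -0.22 to 0.017 for Cdkn2c. Mutant minus wildtype ran from -0.037 to 0.074 for Cdkn1a, and was -0.0052 with RLE scaling, -0.00097 with DESeq2 and -0.0079 with mutant replicates summed. The causes were not tested. Among all genes, mutant against empty vector gave 21 higher and 6 lower, but 119 and 296 with no filter, 60 and 37 with DESeq2, 12 and 2 with the replicate block, 9 and 2 with mutant replicates summed, and 5 to 227 and 2 to 610 without single libraries. Mutant against wildtype gave 1313 and 1267, but 779 and 772 with mutant replicates summed, 2323 and 2417 with the 6-library block, and 693 to 1581 and 778 to 1577 without single libraries. Wildtype against empty vector gave 1137 and 1186, with 1379 and 1191 by DESeq2, and 732 to 1614 and 655 to 1641 without single libraries.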

Other observations

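Ccnd2 and Ccnd3 encode D-type cyclins, partners of CDK4 and CDK6, the kinases that Cdkn2c and Cdkn2d products bind, and moved in opposite directions with wildtype GATA1. Ccnd2 fell, with a log2 fold change of -0.70 ± 0.11 (adjusted p = 0.000702, edgeR), and Ccnd3 rose by 1.02 ± 0.13 (0.000118). In mutant minus wildtype, Ccnd2 was 0.65 ± 0.11 (adjusted p = 0.00138, edgeR) and Ccnd3 was -0.71 ± 0.13 (0.00201). The third D-type cyclin gene, Ccnd1, was at 0.13 ± 0.40 in wildtype minus empty vector (adjusted p = 0.841, edgeR) and -0.26 ± 0.40 in mutant minus wildtype (0.666). Ccna2 and Ccnb2, for cyclins A2 and B2, were higher with the wildtype, by 0.52 ± 0.10 (adjusted p = 0.00261, edgeR) and 0.56 ± 0.11 (0.00243), and were -0.45 ± 0.10 and -0.69 ± 0.11 in mutant minus wildtype. Ccnb1, for cyclin B1, was at 0.09 ± 0.12 (adjusted p = 0.612, edgeR) and -0.21 ± 0.12 (0.219) in the same comparisons. The 4 genes called here were chosen after their values were seen, and their calls held in every alternative analysis run.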
